A study of Mus musculus with 6 samples.

Results

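The regions described here are 1833 peaks of open chromatin that had more reads in mouse intestinal organoids given arachidonic acid (AA) and in those given prostaglandin E2 (PGE2) than in those given vehicle. They were taken from 90823 consensus peaks by 2 thresholds on CPM (the reads in a peak per 1000000 reads counted in all peaks of that library). A peak on 1 of the 19 autosomes had to average at least 2 CPM over the 6 libraries, and its lowest value among the 4 AA and PGE2 libraries had to be at least 1.5 times its highest value in the 2 vehicle libraries. The peaks that met both made up 2.02% of all peaks and 2.71% of the 67744 autosomal peaks that averaged at least 2 CPM, the set that serves as the reference below. The mirrored rule, with every treated library lower, found 1410 peaks (2.08%), called closed by both. The members were thus chosen by their CPM in all 6 libraries, so their difference from vehicle is given as a description and was not tested. The rule takes the higher of the 2 vehicle values, so leaving 1 out can only ease that threshold. Without vehicle library 1 the rule found 2852 peaks and without vehicle library 2 it found 3267. The contrast of AA with PGE2 was not used by the rule and was tested.

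The organoids were grown in Matrigel from mouse crypts and treated for 3 days with vehicle, with 25 µM AA or with 50 nM PGE2, and each group has 2 libraries. The sample labels name the prostaglandin PGE2, while the series text names 6,16-dimethyl PGE2, a stabilised analogue; PGE2 is used here for that group. All groups shared a medium with the growth factors EGF, Noggin and R-spondin, the GSK3 inhibitor CHIR-99021 and the ROCK inhibitor Y-27632, so agents that activate Wnt signalling were in the controls too. Epithelial cells, sorted out of the organoids, were profiled by Omni-ATAC-seq, in which a transposase cuts accessible DNA. The sources used here give no strain, sex or age of the mice and no makeup of the vehicle. They do not say whether the 2 libraries of a group came from separate cultures, so p-values measure only the spread between these libraries. Totals were 12374232 to 14236985 counts per library. Peaks within 1 kb of an end of the epithelial genes Epcam, Cdh1, Vil1 and Cdx1 held 40.0 to 120 CPM per gene in every library. No peak lay within 1 kb of an end of Ptprc or Csf1r (leukocytes), Col1a1 or Pdgfra (stroma), or Pecam1 or Cdh5 (endothelium), but other genes of the marker lists for those cells had gene-end peaks (3 immune, 2 stromal and 5 endothelial genes), whose levels are given with the lists.

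Arachidonic acid is a fatty acid of membrane phospholipids, and the cyclooxygenases convert it into prostaglandins, among them PGE2. PGE2 signals through receptors that raise cyclic AMP or calcium in gut epithelium and is known for its part in epithelial repair. After injury, crypt cells can switch on a set of genes of the fetal gut, such as Ly6a and Anxa1, and YAP with its TEAD partners and AP-1 (dimers of Fos and Jun proteins) are transcription factors associated with that state. Distal open regions often mark enhancers, which regulate genes from a distance, and the gene nearest to a peak need not be the one it regulates.

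The only member sequences that could be read were promoter windows in the RefSeq table for GRCm38.p6 (the assembly of mm10, the build of the files), each running from 250 bases before to 50 bases after an annotated start. The 6 windows below lie whole inside members. The windows of Il1rn (chr2:24336610-24336909, plus strand) and Anxa10 (chr8:62123144-62123443, minus strand) are shown as promoters of genes of the fetal and regenerative list. Gm13415 (chr2:24440143-24440442, plus strand), a long noncoding RNA that starts inside Pax8, is shown because its window had the largest ratio to vehicle among the members that hold one. The windows of Psapl1 (chr5:36203771-36204070, plus strand) and Capn2 (chr1:182517561-182517860, minus strand) are a CpG-poor and a CpG-rich example with a match. Msl2 (chr9:101074512-101074811, plus strand) is shown for contrast, since its peak was called higher with PGE2 than with AA. Capitals mark every match to TGANTCA, the core letters recognised by AP-1, which read the same on both strands.
Il1rn: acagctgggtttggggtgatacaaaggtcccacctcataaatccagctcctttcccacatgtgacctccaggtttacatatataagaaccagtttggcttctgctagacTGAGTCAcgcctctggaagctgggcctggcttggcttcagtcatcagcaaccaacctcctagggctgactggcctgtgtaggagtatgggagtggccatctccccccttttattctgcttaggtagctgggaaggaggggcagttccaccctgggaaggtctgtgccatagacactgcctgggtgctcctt
Anxa10: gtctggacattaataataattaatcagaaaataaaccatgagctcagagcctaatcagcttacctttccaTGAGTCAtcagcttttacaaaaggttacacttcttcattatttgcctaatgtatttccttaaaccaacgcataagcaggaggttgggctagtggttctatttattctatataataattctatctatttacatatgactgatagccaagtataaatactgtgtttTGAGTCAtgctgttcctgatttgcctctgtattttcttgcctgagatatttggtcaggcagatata
Gm13415: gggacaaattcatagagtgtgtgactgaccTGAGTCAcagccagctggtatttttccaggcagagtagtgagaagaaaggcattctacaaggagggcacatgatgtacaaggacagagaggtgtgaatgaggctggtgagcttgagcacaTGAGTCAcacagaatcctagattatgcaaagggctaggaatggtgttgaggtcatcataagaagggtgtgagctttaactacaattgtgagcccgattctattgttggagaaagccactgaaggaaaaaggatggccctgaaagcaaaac
Psapl1: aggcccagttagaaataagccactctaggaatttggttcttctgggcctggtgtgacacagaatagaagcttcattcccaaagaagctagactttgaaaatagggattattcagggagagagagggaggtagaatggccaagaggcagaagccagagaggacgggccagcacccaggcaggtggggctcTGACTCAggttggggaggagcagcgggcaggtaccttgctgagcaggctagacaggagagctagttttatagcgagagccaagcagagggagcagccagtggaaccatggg
Capn2: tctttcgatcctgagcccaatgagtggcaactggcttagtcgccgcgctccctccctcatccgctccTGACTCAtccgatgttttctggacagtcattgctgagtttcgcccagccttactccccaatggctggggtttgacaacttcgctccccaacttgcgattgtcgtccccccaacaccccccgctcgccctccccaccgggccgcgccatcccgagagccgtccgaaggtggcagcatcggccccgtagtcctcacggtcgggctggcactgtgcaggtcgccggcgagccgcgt
Msl2: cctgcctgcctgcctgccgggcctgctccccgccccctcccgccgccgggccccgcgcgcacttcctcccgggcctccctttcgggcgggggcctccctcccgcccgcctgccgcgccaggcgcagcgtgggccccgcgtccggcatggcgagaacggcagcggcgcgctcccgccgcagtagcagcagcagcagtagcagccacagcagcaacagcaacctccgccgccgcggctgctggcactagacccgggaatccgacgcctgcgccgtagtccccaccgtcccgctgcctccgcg

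Anxa10 and Gm13415 hold 2 matches each, Il1rn, Psapl1 and Capn2 hold 1, and Msl2 holds none. A match describes the letters of the window and does not show that a factor was bound.

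Most of the 1833 peaks were weakly accessible with vehicle and moderately accessible with either treatment. The median peak had 2.26 and 2.33 CPM in the vehicle libraries, 6.18 and 6.22 CPM with AA, and 4.98 and 4.86 CPM with PGE2. The reference peaks had medians of 7.18 to 7.57 CPM in the 6 libraries. Member medians were well below these with vehicle, remained below them with PGE2 and came nearest to them with AA. Median fold over vehicle was 2.58 with AA and 2.07 with PGE2, and 1563 members (85.3%) reached 2-fold with AA, 1033 (56.4%) with PGE2 and 985 (53.7%) with both. The ratio used by the rule, lowest treated over highest vehicle CPM, had a median of 1.75 and quartiles of 1.6 and 1.99. It was at least 2 in 451 members (24.6%), at least 3 in 35 (1.91%) and at most 5.06. The higher of the 2 vehicle counts had a median of 32 reads (7 to 460), so the folds of the weaker peaks rest on few reads. Libraries of a group lay within 1.5-fold of each other at 91.7% of members for vehicle, 98.4% for AA and 97.8% for PGE2.

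**Figure D1:**
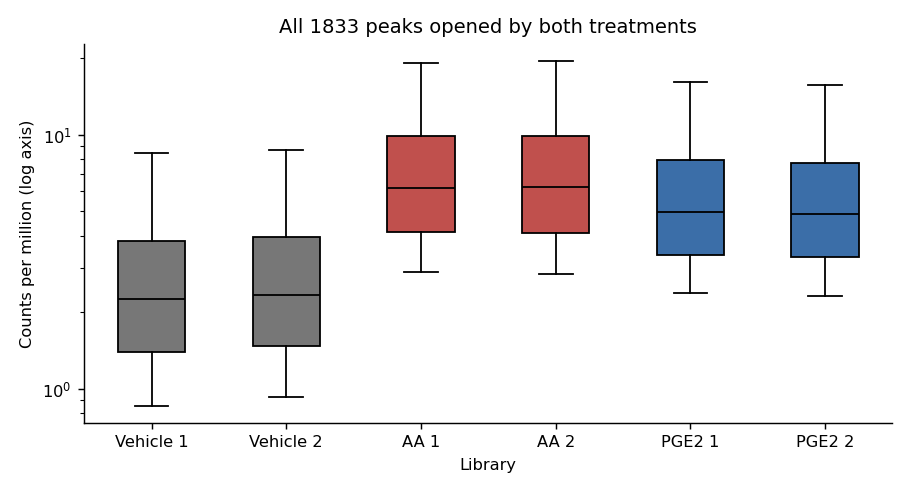
CPM (log axis) of the 1833 peaks opened by both treatments in each of the 6 libraries; boxes span the quartiles, lines mark medians and whiskers the 5th and 95th percentiles. The AA medians (6.18 and 6.22) lie above the PGE2 medians (4.98 and 4.86), and the rule fixed that all 4 lie above vehicle.

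The member with the largest ratio, 5.06, lay 19789 bp outside the nearest end of Runx2, a Runt-family transcription factor (chr17:44475977-44476419). Its accessibility was 0.546 and 0.62 CPM with vehicle, 3.72 and 3.88 CPM with AA, and 3.6 and 3.14 CPM with PGE2. Vehicle counts there were 7 and 8 reads, and treated counts were 42 to 53. A peak 32561 bp from an end of Elk3, an ETS-family factor, followed with a ratio of 4.25 at more reads. It had 1.72 and 1.78 CPM with vehicle, 8.5 and 8.57 CPM with AA, and 7.59 and 7.77 CPM with PGE2. The next 8 by ratio (3.18 to 3.79) were assigned to Prss47, Prkg2, Unc5b, Serpinb1c, Hmgcll1, Tm4sf1, Ptprn2 and Col28a1. Prkg2 encodes a cGMP-dependent kinase and Unc5b a netrin receptor. At the Col28a1 peak, AA gave 8.99 and 10.7 CPM and PGE2 5.67 and 6.43 CPM against 16 and 23 reads, at most 1.78 CPM, with vehicle. Hmgcll1 went the other way, with 2.88 and 4.28 CPM with AA and 4.9 and 4.86 CPM with PGE2 against 0.858 and 0.698 CPM, but AA and PGE2 were not called different there (adjusted p = 0.134).

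The most accessible members were of another kind, with smaller folds from a higher start. Adrm1, a ubiquitin receptor of the proteasome, had the peak with the highest mean, at its gene end: 35.9 and 34.5 CPM with vehicle, 56.5 and 57.9 CPM with AA, and 59.9 and 70.3 CPM with PGE2. A peak 24422 bp from an end of Itga1, a collagen-binding integrin, had 19.3 and 17.8 CPM with vehicle, 35.7 and 37.0 CPM with AA, and 30.3 and 29.4 CPM with PGE2. AA was higher than PGE2 at Itga1 by 0.27 (SE 0.08, adjusted p = 0.0223), a call that was lost without AA library 1 (adjusted p = 0.0761) or AA library 2 (adjusted p = 0.181). Of the others among the 10 most accessible members, 7 lay near Tcte2, Dapk2, Cilk1, Gm46963, Zswim4, Ripor3 and Dguok, with folds of 1.69 to 2.75 for AA and 1.52 to 1.86 for PGE2.

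**Figure D2:**
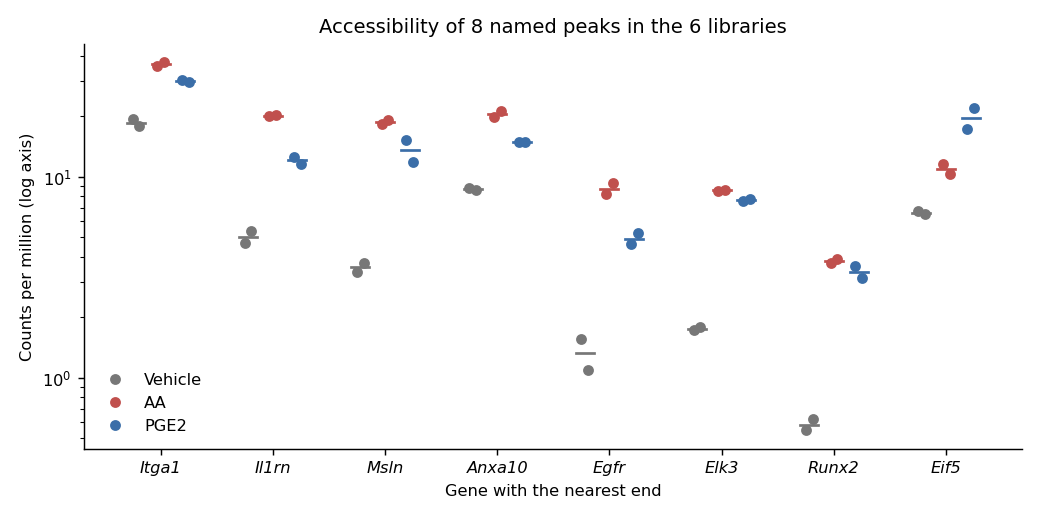
CPM (log axis) in each library (points) and group mean (bars) for 8 members, labelled by the gene with the nearest end; for Anxa10 the promoter peak is drawn. AA lies above PGE2 in both libraries at Itga1, Il1rn, Msln, Anxa10, Egfr, Elk3 and Runx2, and PGE2 lies above AA at Eif5.

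At peaks that both treatments opened, AA at its dose opened them further than PGE2 did at its own. Mean CPM was higher with AA at 1629 of 1833 members (88.9%), against 50.9% of the reference peaks. Both AA libraries exceeded both PGE2 libraries at 1248 members (68.1%, against 28.7% of reference peaks), the reverse held at 63 (3.44%, against 26.0%), and the libraries overlapped at 522. The quasi-likelihood test of edgeR, with p-values adjusted by the Benjamini-Hochberg method over all 89347 tested peaks, called 464 members (25.3%) higher with AA, where 5.07% of all tested peaks were called. It called 8 members (0.436%) higher with PGE2, where 4.88% of all tested peaks were called, and it called 1361 in neither direction. The median difference, AA minus PGE2, was 0.30 on the log2 scale over members and -0.01 over all tested peaks, and the 5th and 95th percentiles over members were -0.12 and 0.77. The 1410 peaks closed by both had a median of -0.09. Of them, 3 (0.213%) were called higher with AA and 44 (3.12%) with PGE2, both below the shares of all tested peaks. Members above the median level were called higher with AA more often (310 of 917, 33.8%) than those below it (154 of 916, 16.8%). The difference was above 0 at 90.2% and 85.3% of them, and shares of all tested peaks by level were not computed. Without AA library 1 there were 233 calls for AA, and without AA library 2 there were 193. DESeq2 gave an adjusted p for 512 members and called 30 of them higher with AA (5.86%, against 0.632% of all peaks with one) and 1 higher with PGE2 (against 0.974%).

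**Figure D3:**
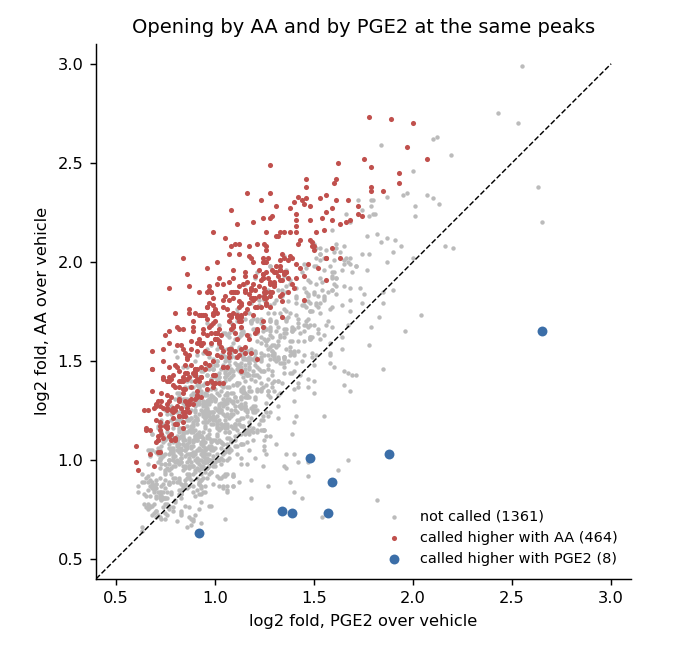
log2 fold over vehicle with AA (vertical axis) and with PGE2 (horizontal axis) for each of the 1833 members; the dashed line marks equal folds and colours mark the edgeR calls for AA minus PGE2. The 464 members called higher with AA lie above the line and the 8 called higher with PGE2 below it, and the rule set the empty space near 0 on both axes.

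The member with the smallest p for AA over PGE2 lay inside Mettl15, a mitochondrial RNA methyltransferase gene. It had 2.42 and 3.26 CPM with vehicle, 12.2 and 12.5 CPM with AA, and 4.98 and 6.73 CPM with PGE2, a difference between treatments of 1.06 on the log2 scale (SE 0.15, adjusted p = 5.73e-06). A peak 19618 bp from the nearest end of Il1rn, which encodes the interleukin-1 receptor antagonist, had 4.68 and 5.35 CPM with vehicle, 20.0 and 20.2 CPM with AA, and 12.5 and 11.6 CPM with PGE2. Its difference was 0.73 (SE 0.11, adjusted p = 1.67e-05). The others of the 6 smallest p-values were near Socs6 (0.89), a suppressor of cytokine signalling, Insyn1 (0.85), Gm46963 (0.55) and Paqr8 (0.92), a membrane progestin receptor. At each of these 6 peaks both AA libraries exceeded both PGE2 libraries.

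The 8 members called higher with PGE2 were mostly at gene ends, unlike the members as a whole. Of 56 members within 1 kb of a gene end, 5 were called higher with PGE2 and 5 with AA, against 3 and 459 of the other 1777, and the median difference was 0.13 at gene ends and 0.30 elsewhere. Eif5, a translation initiation factor, had 6.71 and 6.51 CPM with vehicle, 11.6 and 10.3 CPM with AA, and 17.2 and 21.9 CPM with PGE2, a difference of -0.85 (SE 0.12, adjusted p = 1.29e-05). Msl2, a histone-modifying ubiquitin ligase, had 4.76 and 4.03 CPM with vehicle, 8.64 and 7.6 CPM with AA, and 11.2 and 15.3 CPM with PGE2 (difference -0.72, SE 0.14, adjusted p = 0.00118). At the shared start of the collagen IV genes Col4a1 and Col4a2 the largest fold of any member with PGE2 was seen, 6.29, on few reads. Values there were 0.78 and 0.388 CPM with vehicle, 1.97 and 1.7 CPM with AA, and 3.91 and 3.44 CPM with PGE2. The remaining 5 lay at Ifnz and Bcl3, at 2 sites inside Runx2 and at Nol4l, with differences of -0.31 to -0.84. All counts within 1 kb of gene ends took 31.4% to 31.9% of the reads in the vehicle libraries, 32.3% and 32.8% in the AA libraries, and 34.3% and 35.8% in the PGE2 libraries, with PGE2 library 2 the highest. When peaks at gene ends had a scaling factor of their own, 8 members were called, 7 of them the same, and the differences at gene ends were smaller: -0.73 at Eif5, -0.60 at Msl2, -0.89 at the Col4a1 and Col4a2 start and -0.49 at Ifnz, which lost its call (adjusted p = 0.0652). Without PGE2 library 1 there were 17 such calls, without AA library 1 there were 3 and without AA library 2 there were 3. Eif5 was the only 1 of the 8 that stayed called when each library was left out in turn. The Msl2 call was lost without PGE2 library 2 (adjusted p = 0.0729).

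The Runx2 locus held 4 members, 2 of them called higher with PGE2. The peak of ratio 5.06 outside the gene did not separate AA from PGE2 (difference 0.16, SE 0.21, adjusted p = 0.71). Inside Runx2, the peak at chr17:44587849-44588514 had 1.72 and 1.55 CPM with vehicle, 3.93 and 2.75 CPM with AA, and 6.05 and 5.98 CPM with PGE2 (difference -0.84, SE 0.19, adjusted p = 0.00255). The peak at chr17:44735615-44736610, also inside Runx2 but nearest to an end of Supt3, was higher with PGE2 by a smaller margin (difference -0.49, SE 0.15, adjusted p = 0.0254). Between those 2, the peak at chr17:44727775-44728093 had a difference of 0.43 (SE 0.22) and was not called. The call at chr17:44587849-44588514 was lost without AA library 2 (adjusted p = 0.0897), and that at chr17:44735615-44736610 without AA library 1 (adjusted p = 0.25), AA library 2 (adjusted p = 0.0702) or PGE2 library 2 (adjusted p = 0.308).

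Among the gene lists, the one for fetal and regenerative gut epithelium held the largest share of members. Of its 131 reference peaks, 25 (19.1%) were members, against 2.71% of all reference peaks, and they belonged to 12 genes. All 25 met the rule by construction, and the lists were chosen with earlier results of these data known. The list's count thus describes where the members fell and is no test of it. Among them, Anxa1 had 5 members, Il1rn 4, and Anxa3, Anxa5, Anxa10, Ereg and Msln had 2 each. Krt18, Cd44, Ly6a and S100a6 had 1 each. Of the 25, 9 were called higher with AA than PGE2 and 0 the other way, against 25.3% and 0.436% of all members, and their median difference was 0.32, near the 0.30 of all members. In these bulk libraries, more cells with a region open and a region more open in the same cells cannot be told apart.

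Msln, the surface protein mesothelin, had the largest ratio of the list. Its peak 2288 bp from the gene had 3.35 and 3.72 CPM with vehicle, 18.2 and 19.2 CPM with AA, and 15.2 and 11.8 CPM with PGE2 (AA minus PGE2 0.46, SE 0.11, adjusted p = 0.00479). Anxa10, an annexin, which is a calcium-dependent phospholipid-binding protein, had both its members called higher with AA. The promoter peak, whose window is printed above, had 8.74 and 8.53 CPM with vehicle, 19.9 and 21.3 CPM with AA, and 14.8 and 14.9 CPM with PGE2 (difference 0.46, SE 0.10, adjusted p = 0.00241). The Il1rn promoter peak had 8.11 and 6.51 CPM with vehicle, 17.0 and 17.9 CPM with AA, and 14.4 and 14.0 CPM with PGE2, and its difference of 0.29 (SE 0.11) was not called (adjusted p = 0.086). Of the 4 Il1rn members, 3 were called higher with AA, the largest being the peak inside the gene: 2.57 and 1.71 CPM with vehicle, 8.36 and 8.08 CPM with AA, and 3.91 and 3.89 CPM with PGE2 (difference 1.06, SE 0.17, adjusted p = 4.44e-05). The peak 1361 bp from Ly6a, the gene of the stem cell antigen Sca-1, had 4.68 and 6.12 CPM with vehicle, 11.6 and 11.2 CPM with AA, and 11.1 and 10.2 CPM with PGE2. The Msln call was lost without AA library 2 (adjusted p = 0.0701) or PGE2 library 2 (adjusted p = 0.11), and the Anxa10 promoter call without AA library 2 (adjusted p = 0.0555).

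Anxa1, an annexin linked to the resolution of inflammation, had 5 members over 51.2 kb. The gene-end peak had 5.93 and 4.88 CPM with vehicle, 13.8 and 15.9 CPM with AA, and 12.9 and 13.2 CPM with PGE2. One of the 5, a peak 30169 bp from the gene (chr19:20420411-20421270), separated the treatments: 4.99 and 5.12 CPM with vehicle, 15.3 and 15.6 CPM with AA, and 9.65 and 9.49 CPM with PGE2 (difference 0.68, SE 0.12, adjusted p = 0.000123). At the other 4, differences of -0.38 to 0.17 were not called. Whether the 5 differ from each other in the balance of AA and PGE2 was not tested.

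In the EGF family, which signals for epithelial growth, 7 of 80 reference peaks (8.75%) were members, against 2.71% of all reference peaks. They lay near the receptor Egfr (3), the ligand Ereg (2) and the neuregulin Nrg2 (2). The Ereg peaks also count in the fetal and regenerative list. Of the 7, 2 were called higher with AA and 0 with PGE2, against 25.3% and 0.436% of all members. A count of 7 is too small to set the list apart. The Nrg2 member of highest ratio was not called (difference 0.26, SE 0.15, adjusted p = 0.304). The Egfr peak 35355 bp outside the gene (chr11:16716530-16717166) had 1.56 and 1.09 CPM with vehicle, 8.15 and 9.29 CPM with AA, and 4.6 and 5.23 CPM with PGE2. It was higher with AA by 0.81 (SE 0.16, adjusted p = 0.000621). A further member deep inside Egfr, more than 50 kb from either end and so outside the list count, had 2.18 and 2.17 CPM with vehicle, 7.66 and 8.32 CPM with AA, and 4.9 and 5.83 CPM with PGE2 (difference 0.56, SE 0.16, adjusted p = 0.0166). Ereg, which encodes epiregulin, had 2.11 and 1.47 CPM with vehicle, 7.09 and 6.22 CPM with AA, and 4.67 and 4.04 CPM with PGE2 at its stronger member by ratio (difference 0.61, SE 0.17, adjusted p = 0.0179). The Ereg call was lost without AA library 1 (adjusted p = 0.201) or PGE2 library 2 (adjusted p = 0.116). The inner Egfr call was lost without AA library 1 (adjusted p = 0.0565), AA library 2 (adjusted p = 0.138) or PGE2 library 1 (adjusted p = 0.173).

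YAP and TEAD target genes had 7 of 135 reference peaks (5.19%, against 2.71% of all reference peaks) among the members. Of the 7, 0 were called between treatments, where 25.3% of all members were called higher with AA, and a count of 7 is too small to set the list apart. They lay near Tead1 (3) and Tead4, the DNA-binding partners of YAP, and near Ccn1, Myof and Ptpn14. The Ptpn14 promoter peak had 6.79 and 6.12 CPM with vehicle, 14.8 and 12.4 CPM with AA, and 13.9 and 16.7 CPM with PGE2. Ccn1, which encodes a secreted matrix protein, had 3.43 and 3.41 CPM with vehicle, 7.8 and 7.43 CPM with AA, and 8.73 and 6.8 CPM with PGE2 at a peak 16483 bp from the gene. At both genes the AA and PGE2 libraries overlapped.

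Genes of eicosanoid metabolism had 6 members among 123 reference peaks (4.88%, against 2.71% of all reference peaks), at 3 genes. Of the 6, 2 were called higher with AA and 0 with PGE2, against 25.3% and 0.436% of all members. A count of 6 is too small to set the list apart. Ptgs2, the inducible cyclooxygenase that turns AA into the precursor of PGE2, had a member 7373 bp from the gene with 3.35 and 4.26 CPM with vehicle, 8.08 and 9.46 CPM with AA, and 8.28 and 8.3 CPM with PGE2. Slco2a1, a prostaglandin uptake transporter, had 1.01 and 0.543 CPM with vehicle, 4.14 and 3.47 CPM with AA, and 2.61 and 1.64 CPM with PGE2 at the member 13065 bp from the gene (difference 0.84, SE 0.25, adjusted p = 0.024), a call lost without AA library 1 (adjusted p = 0.243), AA library 2 (adjusted p = 0.0572) or PGE2 library 2 (adjusted p = 0.26). Abcc4, an exporter of cyclic nucleotides and prostaglandins, had 4.13 and 3.49 CPM with vehicle, 11.2 and 10.4 CPM with AA, and 8.66 and 8.37 CPM with PGE2 at its member of highest ratio. None of the 6 members lay within 1 kb of a gene end, and no peak of the prostaglandin receptor genes in the list was a member.

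The remaining lists had 2 members or fewer each, with shares to be read against the 2.71% of all reference peaks. Crypt base stem cell genes had 2 of 221 reference peaks (0.905%), near Axin2 and Slc12a2, and the Wnt target list had 2 of 153 (1.31%), near Axin2 and Cd44. The cyclic AMP and CREB list had 2 of 101 (1.98%), both near Ptgs2, and secretory lineage genes had 2 of 70 (2.86%), near Agr2 and Muc2, which encode goblet cell products. Absorptive enterocyte genes had 0 of 130, and the genes of the AP-1 subunits themselves had 0 of 81. Of the lists for other cell types, fibroblast and stroma had 0 of 23, immune cells 0 of 16, and endothelium 1 of 56, near Flt1. Summed gene-end CPM of those lists was 7.57 to 9.84 with vehicle, 7.27 to 7.38 with AA and 6.88 to 8.43 with PGE2 for stroma. It was 47.7 to 50.2, 49.7 to 55.1 and 54.9 to 55.2 for immune genes, and 14.5 to 15.1, 11.5 to 13.4 and 14.1 to 15.2 for endothelial genes. The part of these cells in the members was not tested.

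**Figure D4:**
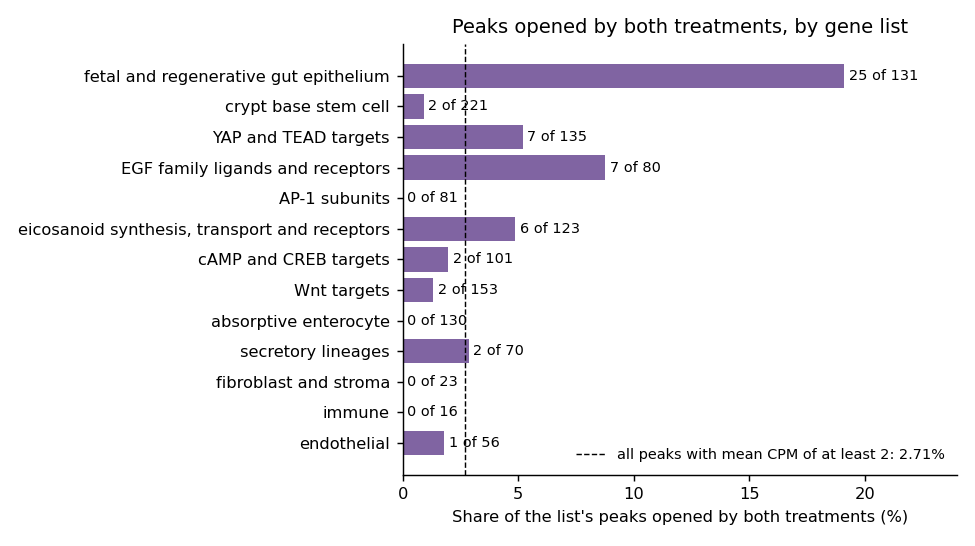
Share of each gene list's peaks (mean of at least 2 CPM) that are members, with the counts beside the bars; the dashed line marks the 2.71% of all such peaks. The fetal and regenerative list stands highest at 19.1% (25 of 131), and 4 lists have no member. The lists were chosen with earlier results of these data known.

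Members lay close to one another along the chromosomes. For 367 members (20.0%) the next reference peak on at least 1 side was also a member, against 4.82% of the other reference peaks. Within 50 kb of another member lay 567 (30.9%), a share not computed for reference peaks. Neighbouring members were separated by a median of 5191 bp, and 7 of the 204 neighbouring pairs were within 500 bp. The 3175 non-members next to a member had median folds of 1.06 with AA and 1.04 with PGE2, against 0.97 and 0.96 over all 65911 non-members. By chromosome the share of reference peaks that were members ran from 2.18% (chromosomes 11 and 18) to 3.78% (chromosome 3).

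In all, 13 runs of at least 4 members with no gap over 50 kb held 59 of them. A run always begins and ends with a member, so peaks beyond its edges are not counted in it. The run at Gsap, the gamma-secretase activating protein gene, had 7 members among 9 reference peaks over 66.0 kb, and 5 of the 7 were assigned to Gsap, which had 8 reference peaks. Median folds of the 7 were 2.8 for AA and 2.21 for PGE2, while the 2 non-members of the run had median folds of 0.96 and 0.919. The Gsap peak of largest ratio, 521 bp from the gene, had 3.35 and 3.57 CPM with vehicle, 9.83 and 10.1 CPM with AA, and 10.8 and 9.94 CPM with PGE2. Cldn18, which encodes a tight-junction claudin best known from stomach and lung, had 6 reference peaks assigned to it. Its 4 members formed a run of 4 reference peaks over 19.7 kb. Its strongest, inside the gene, had 4.99 and 4.96 CPM with vehicle, 15.0 and 15.1 CPM with AA, and 13.0 and 12.9 CPM with PGE2. Casq2, a calcium-binding protein gene best known from heart, also had a run of 4 of 4 reference peaks, of 7 assigned to it. Its most accessible member had 13.2 and 11.7 CPM with vehicle, 27.3 and 30.5 CPM with AA, and 23.2 and 25.1 CPM with PGE2. All 5 reference peaks were members in a 23.1 kb stretch of chromosome 4 (chr4:89038832-89061912). That stretch has no protein-coding gene end within 50 kb and holds the start of the noncoding RNA Wincr1. The run at Il1rn had 4 of 5 reference peaks, that at Ecpas 4 of 5, and that at Klf5, a transcription factor of crypt cells, 4 of 14.

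The nearest protein-coding gene end lay within 50 kb for 1267 members (69.1%), and these named 1076 genes, of which 926 had 1 member, 119 had 2, 23 had 3, 6 had 4 and 2 had 5. Other peaks of the same genes, which are not members, were also more often higher than vehicle in the edgeR test. With AA, 1639 of 7185 (22.8%) were called higher, against 15.0% of all non-member autosomal peaks, and 8.42% were called lower, against 14.1%. With PGE2, 16.8% were called higher, against 12.6%, and 6.5% lower, against 10.8%. Both contrasts use the same vehicle libraries, and those libraries also chose the members. The PGE2 excess was smaller against all tested peaks, members included, of which 14.3% were called higher with PGE2. The next shares use that reference. Leaving out a vehicle library also lowered the calls over all tested peaks. Without vehicle library 1 the count for other peaks fell from 1208 to 694, or 9.58% against 9.08% of all tested peaks, and without vehicle library 2 to 749, or 10.3% against 9.2%. With DESeq2, 8.61% were called higher with AA against 6.92% of all peaks, members included, but 7.32% with PGE2 against 7.58%. For that tool no share over non-members alone was computed, so whether it gives a PGE2 excess over non-members cannot be told.

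Members were mostly distal. Only 56 (3.06%) lay within 1 kb of an end of a protein-coding gene, against 18.7% of reference peaks and 8.73% of the 21615 reference peaks whose mean CPM lay within the members' quartiles. The median distance to a gene end was 24629 bp, against 10847 bp, and 566 members (30.9%) were more than 50 kb away, against 18.8%. Peaks closed by both were farther still, with a median of 36604 bp and 42.8% beyond 50 kb. Inside genes lay 46.4% of members and 56.5% of reference peaks, and median widths were 542 and 669 bp. Members called higher with AA were at gene ends in 1.08% of cases.

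Few members could therefore be read for sequence: 24 held 25 whole promoter windows, 15 of protein-coding genes and 10 of long noncoding RNAs. The AP-1 letters TGANTCA occurred in 11 of the 25 (44.0%), against 5.25% of the 11602 windows held whole by reference peaks, 7.81% of all 32851 windows and 4 of 55 (7.27%) held by peaks closed by both. There were 14 matches, 13 of them TGAGTCA or TGACTCA. The member windows were poorer in CpG than those of reference peaks, with a median of 5 against 22 CpG and 51.7% against 62.0% GC. Among windows with at most 10 CpG, 10 of 16 member windows (62.5%) and 13.9% of the 1902 reference windows held the AP-1 letters. The TEAD letters GGAATG, read on both strands, were in 5 of 25 (20.0%), against 11.4% of reference windows, 14.7% of all windows and 13 of 55 (23.6%) held by peaks closed by both, so the share was no higher than in closed peaks. The letters GGGCGGG, read by KLF and SP factors, were in 20.0%, against 49.2% of reference windows. They were in 25.6% of all windows and 10.9% of those held by closed peaks. TGTGGTT, read by RUNX factors, was in 3 (12%), against 3.31% of reference windows and 5.27% of all windows. Letters read by CDX factors were in 4 windows (16.0%), against 6.63% of reference windows, 10.9% of all windows and 18.2% in closed peaks. Letters read by GATA factors were in 2 (8.0%), against 1.85%, 3.04% and 7.27%. Both shares were near those in closed peaks. Letters read by ETS factors were in 2 (8.0%), against 19.0% of reference windows, 8.86% of all windows and 1.82% in closed peaks. The CRE letters read by CREB were in 0, against 3.43%, 1.79% and 3.64%. Further motifs were searched and are not listed here. These shares rest on few windows. Without vehicle library 1 the rule took in 79 windows, of which 15.2% had the AP-1 letters, without AA library 1 it took in 49 and 22.4%, and at the lowest fold tried it took in 254 and 10.6%.

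**Figure D5:**
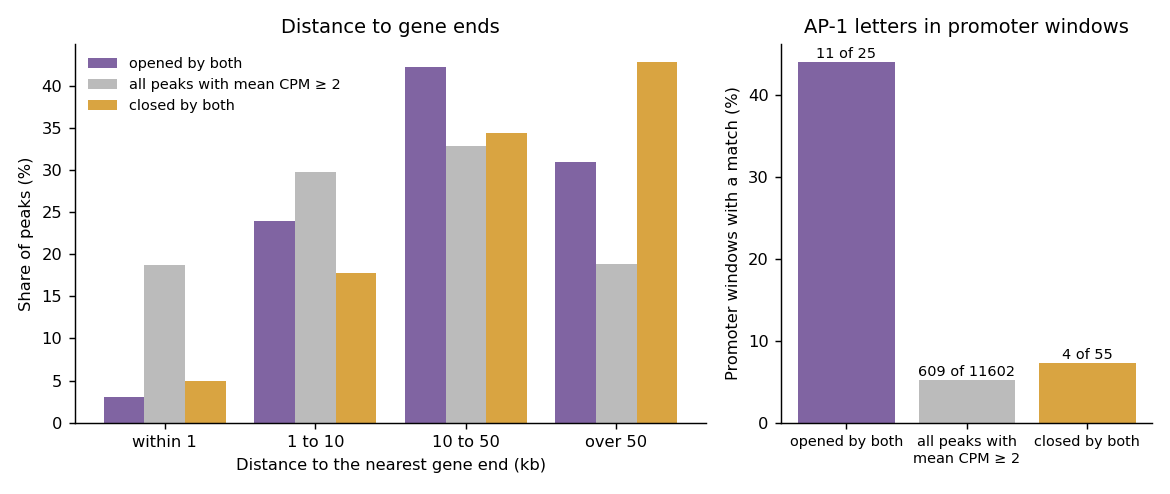
Left, share of peaks by distance to the nearest end of a protein-coding gene, in kb; right, share of 300-base promoter windows lying whole in a peak that hold the AP-1 letters, with counts. Members are at gene ends less often (3.06%) than reference peaks (18.7%), and 11 of their 25 windows hold the letters against 609 of 11602.

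The threshold cut through a continuous range. The members just inside it were near Map3k5, Fhl2 and Tgm2 and the peaks just outside near Spast, Rbm27 and Crem, all with a ratio of 1.5 after rounding. At the Map3k5 peak the lowest treated value was 17.0 CPM and the highest vehicle value 11.3 CPM. At the Crem peak, which was not taken, they were 4.19 and 2.79 CPM. In all, 478 members had a ratio under 1.6, and 671 reference peaks lay between 1.4 and the threshold.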

How the data were processed

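The authors deposited 1 table of raw read counts per consensus peak for all 6 libraries, called with MACS2 after alignment with BWA to mm10, per the submitters' processing notes, and counted with featureCounts 1.6.3, per the file headers. Because 1 peak set served all libraries, regions outside these peaks hold no values. Columns were matched to libraries by their names, and CPM were computed here from column totals. Per library, 12374232 to 14236985 counts limit the precision of weak peaks. AA minus PGE2 was tested with edgeR 4.0.16 (quasi-likelihood, robust, TMM, 1 fit with group as its term, 3 residual degrees of freedom, adjusted p below 0.05) on the 89347 of 90823 peaks left by filterByExpr, checked on simulated data. The spread at a peak was largely borrowed from other peaks by edgeR (median prior degrees of freedom 42.2, against 3 residual). Folds over vehicle are ratios of mean CPM, and log2 differences and their SE come from edgeR.

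Each peak took the name of whichever protein-coding gene had an end closest to its centre, up to 50 kb away (RefSeq, GRCm38.p6); a peak over 50 kb from any end but inside a gene takes that gene's name. Start sites were not used for distances, since the promoter table covers 17491 of 21896 protein-coding genes. A genome of the build was not used here, so motif letters were read only in promoter windows and not at peak centres as planned. Members, gene lists and motifs were chosen with earlier results of these data known. Peaks were named as the 10 of highest mean CPM, the 10 of largest ratio, the 6 smallest p-values per direction, up to 3 per gene list by ratio, those of the 6 genes with the most members, and 3 on each side of the threshold, with 1 peak per gene. The 8 members called higher with PGE2 and further peaks of Anxa10, Ly6a, Egfr and Runx2 were added after their values were seen. Some items that this rule names are not reported here. Alternatives covered thresholds, scaling, filters, DESeq2 1.42.0, a replicate block and leaving out each library.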

Additional observations from a re-analysis of the deposited data

Results flagged for a closer look

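The rule took autosomes only, so no member lies on X or Y, though peaks there were part of the edgeR fit and its adjustment of p-values. On X and Y, 28 of 1353 peaks that averaged at least 2 CPM (2.07%) met both thresholds, against 2.71% on the autosomes, and 27 of them were on X. The peak 3737 bp from Vsig1, a gene of the fetal and regenerative list, had 2.96 and 2.95 CPM with vehicle, 11.9 and 11.6 CPM with AA, and 7.89 and 9.94 CPM with PGE2. A peak inside Amot, which encodes the YAP-binding protein angiomotin, had 1.72 and 1.94 CPM with vehicle, 4.57 and 3.96 CPM with AA, and 3.52 and 4.26 CPM with PGE2. Values on these chromosomes were chosen by the same thresholds and were not tested against vehicle.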

How the results depend on the processing

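The number of members was 4247 at the lowest fold tried, 451 at a fold of 2 and 1042 at a mean of at least 4 CPM, and 1852 to 3267 with 1 library left out. It was 2438 at a mean of at least 1 CPM, 2106 with TMM-scaled totals and 2118 with DESeq2 size factors. Members called higher with AA than PGE2 numbered 193 to 460 without 1 library and 30 with DESeq2, against 434 to 507 in the other alternatives; the median difference was 0.28 to 0.32 in every alternative. Those called higher with PGE2 numbered 3 to 17 without 1 library and 1 with DESeq2. Other peaks of the genes with members called higher with AA numbered 1097 to 1862 without 1 library, 607 with DESeq2 and 309 of 1253 with genes within 10 kb. For PGE2 the counts were 694 to 1150, 421 and 273. DESeq2 gave no adjusted p to many weak peaks. Within 2 kb of a gene end lay 6.22% of members. The AP-1 share was 66.7% at a fold of 2 (2 of 3 windows), 10.6% at the lowest fold tried and 15.2% to 48.3% without 1 library; except for the fold of 2, these were added after seeing the data. Motifs in whole peaks against peak centres were not run, since no genome was used. The cause of these shifts was not tested.

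Replicate numbers did not pair the samples (correlations of deviations 0.00469, -0.0198 and 0.0357). With the replicate block, 475 members were called higher with AA, 463 of them the same, and 10 with PGE2; 1671 and 1256 other peaks were called higher with AA and PGE2.

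Of 45 peaks named or printed for AA minus PGE2, 32 were called, and no called value changed sign. Of the 32, 21 lost the call without at least 1 library. An uncalled value changed sign at Anxa1 (chr19:20393694-20394079, -0.10 to 0.41 without 1 library).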
